A study of Homo sapiens with 4 samples.

Results

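The mitochondrial ribosomal proteins were taken as the genes whose symbol reads MRPL or MRPS followed by a number, with or without a letter, pseudogenes left out. Of the 23362 rows of the gene expression table, 77 matched and gave 76 genes, 47 of them MRPL and 29 MRPS, because MRPS17 had 2 rows and the higher one was kept. A gene entered the comparisons if its value reached 1 FPKM (fragments per kilobase of transcript, scaled to the mapped total, so a level corrected for length and depth) in at least 1 library. This held for 75 of the 76 members and for 11769 genes in all. The exception among the members was MRPS16.

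The mitochondrial ribosome is built from RNAs encoded in the mitochondrial genome and from proteins encoded in the nucleus, made in the cytosol and imported. It translates only the proteins of the respiratory chain and ATP synthase that the mitochondrial genome encodes. Many of its proteins have homologues in bacterial ribosomes, and the others, called mitochondria-specific here, were added in evolution. Doxycycline, the inducer of tet-on systems, belongs to the tetracyclines, which block bacterial ribosomes and are known to slow translation in mitochondria as well.

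The study asked what N-glycosylation of KIAA1324, a type I transmembrane protein, contributes to its effects on gastric cancer cells. RNA was sequenced from 4 stable tet-on lines of MKN28, a human gastric adenocarcinoma cell line, made with retroviruses and drug selection. Luc carried luciferase as the control, WT carried wild-type KIAA1324, 3NQ carried KIAA1324 with asparagines of 3 candidate glycosylation sites changed to glutamine, and ΔTM, by its label, carried KIAA1324 without its transmembrane domain. Whether the lines were clones, and whether or how long doxycycline was given before RNA was taken, is not given in the sources used here. All 4 lines, the control included, share the tet-on system, so a common effect of doxycycline on the members cannot be told apart from the level of MKN28 cells.

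There was 1 library per line, so no difference below has a replicate check or a p-value. The sequencing depth is unknown, since the values are FPKM without counts. KIAA1324 itself was at 2.86 FPKM in Luc, reached 11185 FPKM in WT and 8197 FPKM in 3NQ, and was 0 in the ΔTM library. That 0 is not what the label would give, and whether the label or the estimate is at fault was not tested. The library is therefore called the library labelled ΔTM. The values of the 4 libraries summed to between 560540 and 585104 FPKM. All 8 gastric epithelial markers passed the filter, while the leukocyte and endothelial markers each summed to at most 0.458 FPKM in a library and 1 of 6 fibroblast markers, COL1A1, passed at 12.1 to 15.3 FPKM. The epithelial keratins KRT8 and KRT18 were 1.5-fold or more below Luc in WT, with log2 ratios of -0.91 and -0.80, and whether this bears on the members was not tested.

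The start regions of the members are shown first, as a feature of these dispersed genes that their symbols did not select. RefSeq promoters, running from 250 bases before to 50 bases after the transcription start (GRCh38.p14), were found for 68 of the 76 members and gave 84 promoters, since some genes have several starts. They were searched on both strands for 5 short motifs of factors known at genes of mitochondrial function or at general promoters: CCGGAAG for the ETS family, which includes GABPA (also called NRF2), AAGATGGCG for YY1, ACTACAA for the core of ZNF143, GCATGCGC for NRF1 and TATAAA for the TATA box. None of these motifs contains another.

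The ETS motif was the most frequent of the 5, held by 29 members. It stood in 38.1% of the member promoters, compared to 10.3% of all 35116 promoters and 17.6% of the 12630 promoters of genes tested. The YY1 motif was held by 13 members, in 15.5% of their promoters, compared to 1.75% of all promoters and 3.66% of those of genes tested. The ZNF143 core was held by 8 members, in 9.52% of promoters against 2.77% of all and 3.46% of those of genes tested. The NRF1 motif was held by 6 members, in 7.14% of promoters against 3.05% and 4.87%. TATAAA was held by 4 members, in 4.76% of promoters against 11.5% of all and 5.94% of those of genes tested. Median GC content was 60.2% in the member promoters, 58.7% in all promoters and 65% in those of genes tested. A match is a run of letters and not a measured binding site.

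Among the ETS, YY1, ZNF143 and NRF1 motifs, 25 members held none, 33 held 1 kind, 7 held 2 kinds and 3 held 3 kinds. The 3 members with 3 kinds were MRPL32, MRPL52 and MRPS18A, and windows of 30 bases around their matches are printed with the motif letters, in either direction, in capitals.
MRPL32, NRF1 (chr7:42932326-42932355, plus strand): tctgtgcctgtGCGCATGCtgaaagcaggg
MRPL32, YY1 (chr7:42932143-42932172, plus strand): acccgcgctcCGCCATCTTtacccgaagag
MRPL32, ZNF143 (chr7:42932284-42932313, plus strand): catgcggggtgTTGTAGTtctaagaagcga
MRPL52, ETS (chr14:22829871-22829900, plus strand): ggccacgcctaCTTCCGGctaccccggcta
MRPL52, NRF1 (chr14:22829701-22829730, plus strand): ccactgagaatGCATGCGCtgaacgacaat
MRPL52, YY1 (chr14:22829779-22829808, plus strand): acgatgacccAAGATGGCGgagccgtgatt
MRPL52, YY1 (chr14:22829813-22829842, plus strand): acccagattcAAGATGGCGacttcctgctt
MRPS18A, ETS (chr6:43687804-43687833, minus strand): ggcgctacgttCCGGAAGcggaaatggacg
MRPS18A, YY1 (chr6:43687763-43687792, minus strand): taggtttttgAAGATGGCGgccctcaaggc
MRPS18A, ZNF143 (chr6:43687860-43687889, minus strand): ggagcaagcgaACTACAAccccgccccgcc
These 3 genes ranged little between libraries: MRPL32 from 54.98 to 62.3 FPKM, MRPL52 from 56.0 to 66.9 FPKM and MRPS18A from 42.6 to 47.3 FPKM.

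By the coordinates of the deposited table (GRCh37), the members often lie head to head with another gene. For 18 of the 76 members, or 23.7%, another gene on the opposite strand started within 1000 bases in the divergent orientation without overlap, compared to 8.09% of all genes and 11.6% of the genes tested. In 3 such pairs both genes serve mitochondria. MRPL46 and MRPS11, a large and a small subunit gene, start 34 bases apart. MRPL36 starts 34 bases from NDUFS6, and MRPL47 starts 36 bases from NDUFB5, and both partners encode subunits of respiratory complex I. The stretches between the starts are printed on the plus strand of GRCh37, with any of the 5 motifs in capitals.
MRPL46 and MRPS11 (chr15:89010651-89010683): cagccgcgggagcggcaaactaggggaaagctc
MRPL36 and NDUFS6 (chr5:1801481-1801513): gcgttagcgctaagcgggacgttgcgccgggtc
MRPL47 and NDUFB5 (chr3:179322443-179322477): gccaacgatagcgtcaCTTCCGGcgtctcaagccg
The stretch between MRPL47 and NDUFB5 holds the ETS letters, and the other 2 hold none of the 5 motifs.

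Within these pairs the levels were of the same order. MRPL46 was at 38.8 FPKM in Luc, 41.9 FPKM in WT, 42.4 FPKM in 3NQ and 39.2 FPKM in the library labelled ΔTM. Its partner MRPS11 was at 27.5, 25.9, 25.1 and 28.2 FPKM in the same order. MRPS11 was thus lowest in 3NQ, where MRPL46 was highest. MRPL47 was at 61.0, 63.7, 57.9 and 68.9 FPKM, and NDUFB5 at 58.8, 53.1, 56.7 and 65.1 FPKM, both highest in the library labelled ΔTM. MRPL36 was at 39.7, 35.5, 34.6 and 46.1 FPKM, and NDUFS6 at 57.7, 58.3, 54.3 and 53.5 FPKM. The library labelled ΔTM was the highest of the 4 for MRPL36 and the lowest for NDUFS6.

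Overlap with another gene was also frequent and bears on how the values are read. The table places 37 members, or 48.7%, over another gene, and 28 of them, or 36.8% of the members, over a gene of the opposite strand, compared to 39.1% and 27.5% of all genes and 41.6% and 31.8% of the genes tested. Cufflinks, the program that gave the FPKM, ran at its default strand setting, which takes no account of strand. Reads from a stretch shared by genes of opposite strands may thus not be told apart. Overlap was taken over whole gene spans, introns included, and whether exons are shared was not examined. MRPL43 overlaps C10orf2, which encodes the mitochondrial DNA helicase Twinkle, and MRPS12 overlaps SARS2, which encodes the mitochondrial seryl-tRNA synthetase, in both cases on the opposite strand.

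Next, the levels were examined. The median member was at 39.7 (Luc), 41.7 (WT), 41.2 (3NQ) and 40.6 FPKM (library labelled ΔTM), whereas the median of all genes tested lay between 15.5 and 16.3 FPKM. Cytosolic ribosomal protein genes, which build the ribosome outside mitochondria, had medians of 647 to 711 FPKM, and the nuclear genes of complex I had medians of 54.0 to 57.5 FPKM. The share of the 75 members in all FPKM was 0.623% (Luc), 0.628% (WT), 0.604% (3NQ) and 0.648% (library labelled ΔTM). The share of the cytosolic ribosomal proteins ran from 10.4% in WT to 11.9% in the library labelled ΔTM.

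The large subunit had 49 tested members and the small subunit 25. MRPS18A and MRPS30 were counted with the large subunit, where structures place their proteins in spite of the names. The median of the large subunit lay between 40.6 and 42.4 FPKM and that of the small subunit between 37.6 and 43.7 FPKM. The summed FPKM of the large subunit was 2.22 times that of the small subunit in Luc, WT and 3NQ and 2.19 times in the library labelled ΔTM. The ratio of the medians varied more, at 1.06 (Luc), 1.02 (WT), 1.13 (3NQ) and 0.929 (library labelled ΔTM).

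**Figure D1:**
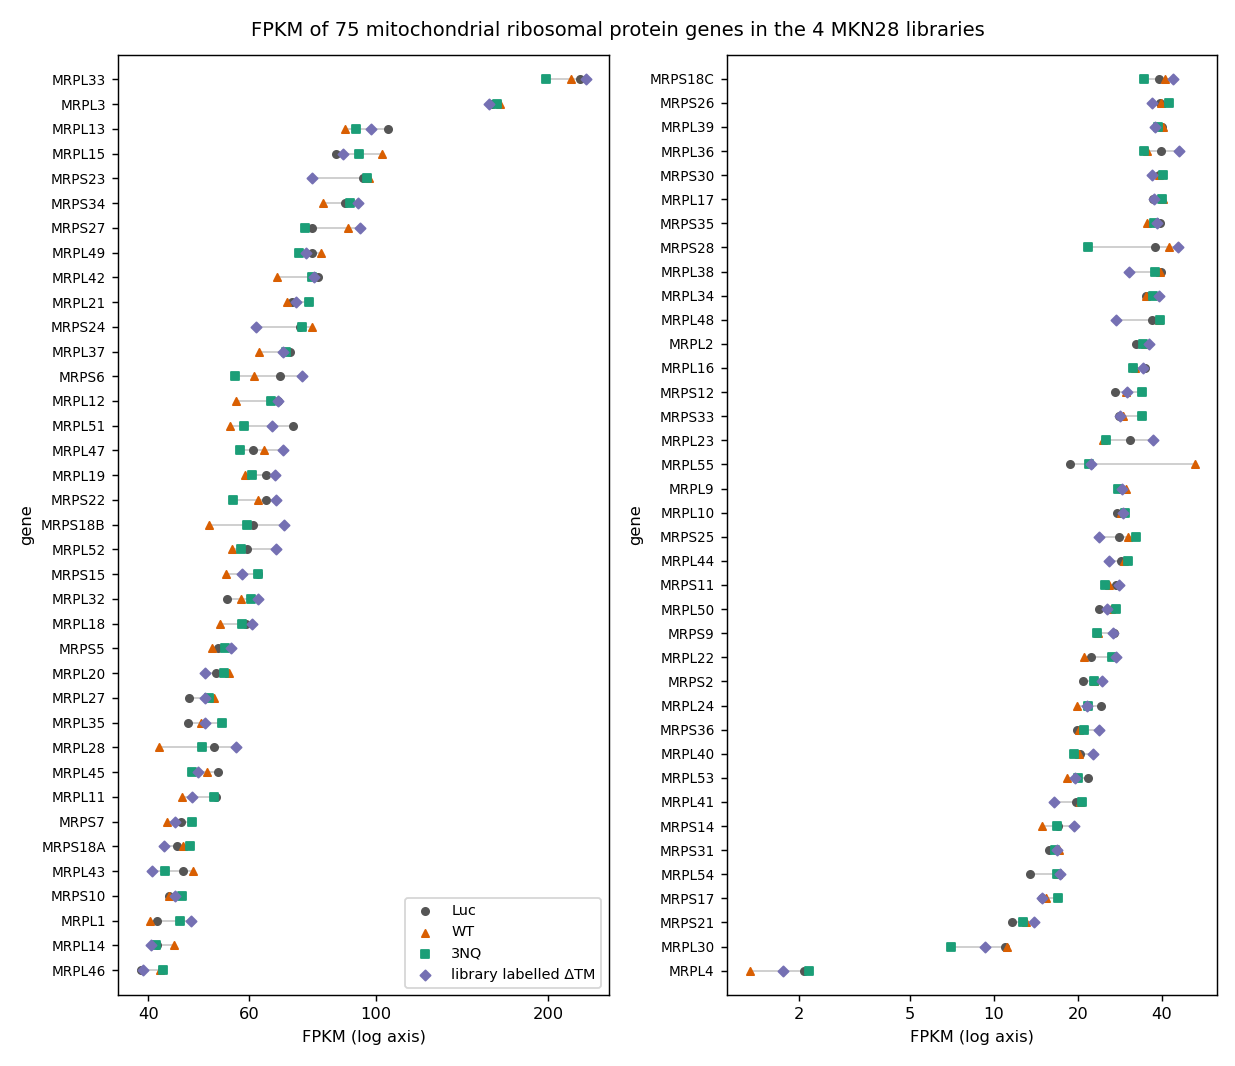
FPKM (log axis) of the 75 members that passed the filter, ordered by their mean, with 1 symbol for each of the 4 libraries and a grey line from the lowest to the highest. The left panel holds the upper members and the right panel the lower ones. For most genes the 4 symbols lie close together, and the longest lines, those of MRPL55 and MRPS28, are the ones over 2-fold.

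Most members, 71 of 75, had a mean between 10 and 100 FPKM. The highest was MRPL33, a small protein of the large subunit with a bacterial homologue, at 228 (Luc), 219 (WT), 198 (3NQ) and 234 FPKM (library labelled ΔTM). MRPL3, whose bacterial homologue reaches toward the peptidyl transferase centre, followed at 159, 165, 163 and 158 FPKM. These 2 were the members with a mean of at least 100 FPKM. MRPL13 was at 105, 88.5, 92.4 and 98.2 FPKM and MRPL15 at 85.1, 103, 93.6 and 87.8 FPKM, both large subunit proteins with bacterial homologues. The mitochondria-specific MRPS23 had the highest mean of the small subunit at 94.9, 97.5, 96.4 and 77.5 FPKM, lowest in the library labelled ΔTM. Their neighbours in the order of levels are not separated beyond the range over libraries: MRPL13, MRPL15 and MRPS23 overlap, and in the library labelled ΔTM the small subunit genes MRPS27 at 94.0 FPKM and MRPS34 at 93.1 FPKM were above MRPS23.

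At the lower end, MRPL4, whose bacterial homologue lines the exit tunnel, was at 2.08 FPKM in Luc, 1.33 FPKM in WT, 2.17 FPKM in 3NQ and 1.75 FPKM in the library labelled ΔTM. It stood apart from the next members, MRPL30 at 6.99 to 11.2 FPKM, MRPS21 at 11.6 to 13.9 FPKM and MRPS17 at 14.8 to 16.99 FPKM. A second row under the symbol MRPS17 was at 0.376 FPKM or less in each library. MRPS16, a small subunit protein with a bacterial homologue whose gene is mutated in inherited mitochondrial disease, was listed at values below 1e-10 FPKM in all 4 libraries. DNAJC9, which overlaps MRPS16 on the same strand, was at 33.0 to 37.0 FPKM. DAP3, the small subunit protein also called MRPS29, was listed at 0 in all 4 libraries. Values above 0 and below 1e-10 FPKM stood in all 4 libraries for 61 rows of the table, so such an entry is not read as absence of the transcript.

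The spread of each member was then expressed as its highest over its lowest FPKM among the 4 libraries. The median of this fold range was 1.18 for the members and 1.27 for all genes tested, and 93.3% of the members stayed under 1.5-fold compared to 77.2% of all genes tested. Among genes with a mean of at least 10 FPKM the gap was narrower, as the median was 1.17 for the 73 members and 1.22 for all genes, with 95.9% and 89.3% under 1.5-fold. The medians of the cytosolic ribosomal proteins and of complex I were both 1.21. Only MRPL55 and MRPS28 of the 75 members exceeded a 2-fold range.

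Differences from Luc were described as the log2 ratio of FPKM + 1, with 1.5-fold (0.585 on the log2 scale) as the threshold for calling a gene higher or lower. The 3 comparisons with Luc share that 1 library. In WT the median member had a ratio of 0.0030, with quartiles of -0.14 and 0.072, compared to -0.0049 for all genes tested, whose quartiles were -0.18 and 0.17. Of the 75 members, 38 were above Luc and 37 below, and 72, or 96.0%, lay within 0.32 of 0 on that scale compared to 75.8% of all genes tested. That share was 96.1% for the cytosolic ribosomal proteins and 83.8% for the complex I genes. One member, MRPL55, was called higher and 0 were called lower, beside 3.36% higher and 3.34% lower among all genes tested.

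MRPL55, a mitochondria-specific protein of the large subunit (ENSG00000162910, GRCh37 chr1:228294380-228297013, minus strand), was at 18.7 (Luc), 52.7 (WT), 21.9 (3NQ) and 22.3 FPKM (library labelled ΔTM). It was high in WT alone, and the other 3 libraries lay close to each other. The WT value was 2.82 times that of Luc, a log2 ratio of 1.45, and the ratios of 3NQ and of the library labelled ΔTM were 0.22 and 0.25. WT was also above 3NQ by 1.23 and above the library labelled ΔTM by 1.20 on the log2 scale. The MRPL55 row overlaps no other gene of the table. The 250 bases before its RefSeq start are printed because MRPL55 had the largest ratio of the 75 members. They lie at chr1:228109300-228109549 of GRCh38.p14 on the minus strand, are 71.6% GC and hold none of the 5 motifs, which are hence not capitalised.
MRPL55, bases before the start: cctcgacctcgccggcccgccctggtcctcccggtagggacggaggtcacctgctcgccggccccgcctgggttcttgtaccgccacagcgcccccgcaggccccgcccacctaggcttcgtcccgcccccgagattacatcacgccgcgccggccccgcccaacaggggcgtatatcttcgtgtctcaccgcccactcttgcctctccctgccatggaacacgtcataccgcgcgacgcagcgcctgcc

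Below that value, the WT ratios were small. MRPL54, a mitochondria-specific large subunit protein, had 0.32 and MRPL15 had 0.27. The lowest ratios among members that reached 5 FPKM were -0.36 for MRPL51, -0.31 for MRPL28 and -0.31 for MRPL23. MRPL4 had -0.40 at its low level. MRPL51, a mitochondria-specific large subunit protein, was at 71.8 FPKM in Luc, 55.6 FPKM in WT, 58.8 FPKM in 3NQ and 66.0 FPKM in the library labelled ΔTM. It overlaps NCAPD2, a condensin gene of the opposite strand, which was at 153, 106, 117 and 132 FPKM in the same order. Both genes were highest in Luc and lowest in WT, and the part of shared reads in this was not tested.

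In 3NQ the median member had a ratio of 0.0096, with quartiles of -0.074 and 0.097, compared to -0.038 for all genes tested. There were 39 members above Luc and 36 below, and 97.3% lay within 0.32 of 0 compared to 81.3% of all genes tested. The cytosolic ribosomal proteins had 97.4% in that range and the complex I genes 86.5%. MRPS28 was called lower and 0 members were called higher, beside 2.57% lower and 1.77% higher among all genes tested.

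MRPS28 (ENSG00000147586), a small subunit protein named as the counterpart of bacterial S1, was at 37.8 (Luc), 42.5 (WT), 21.7 (3NQ) and 45.8 FPKM (library labelled ΔTM). It was low in 3NQ alone. The 3NQ value was 0.574 times that of Luc, a log2 ratio of -0.77, whereas WT and the library labelled ΔTM had ratios of 0.17 and 0.27. Without Luc, 3NQ was lower than the library labelled ΔTM by -1.04, and WT was higher than 3NQ by 0.94 on the log2 scale. MRPS28 overlaps TPD52 on the same strand, and TPD52 was at 239, 243, 238 and 210 FPKM. TPD52 was lowest in the library labelled ΔTM, where MRPS28 was highest. The part of shared reads in the MRPS28 values was not tested.

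MRPL30, a large subunit protein with a bacterial homologue, lay just short of the threshold. It was at 10.99 FPKM in Luc, 11.2 FPKM in WT, 6.99 FPKM in 3NQ and 9.26 FPKM in the library labelled ΔTM. Its ratio in 3NQ was -0.58. WT against 3NQ passed the threshold at 0.61. MRPL30 overlaps 3 other genes, C2orf15 and LIPT1 on the same strand and MITD1 on the opposite strand. C2orf15 was at 31.9, 27.9, 33.4 and 29.8 FPKM, and LIPT1 at 2.90, 2.48, 3.49 and 2.85 FPKM. Both were highest in 3NQ, where MRPL30 was lowest. MITD1 was at 35.8, 34.7, 37.4 and 41.9 FPKM, highest in the library labelled ΔTM. The part of shared reads in this was not tested. MRPL51 followed with a ratio of -0.28 in 3NQ, and the highest ratios were 0.31 for MRPL54, 0.31 for MRPS12 and 0.27 for the mitochondria-specific MRPS33.

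**Figure D2:**
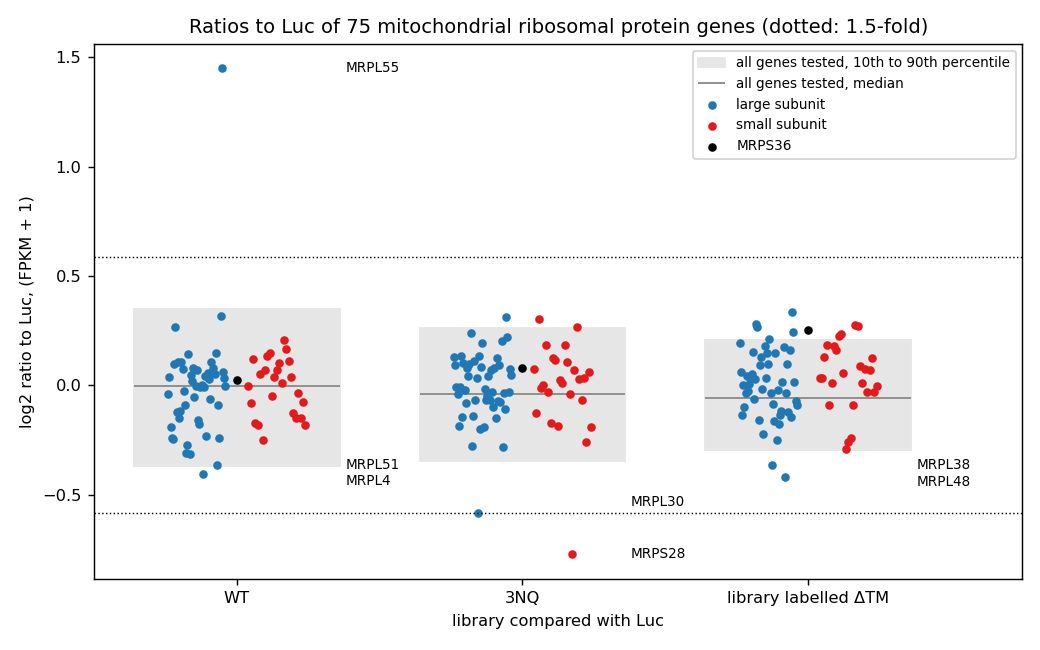
Log2 ratio of FPKM + 1 to Luc for the 75 members in WT, 3NQ and the library labelled ΔTM, with 1 point per gene in the colour of its subunit. The grey box spans the 10th to 90th percentile of all genes tested, the grey line is their median and the dotted lines mark 1.5-fold. MRPL55 lies at 1.45 in WT and MRPS28 at -0.77 in 3NQ, and MRPL30 at -0.58 in 3NQ sits at the line.

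In the library labelled ΔTM the median member had a ratio of 0.027, with quartiles of -0.087 and 0.15, compared to -0.060 for all genes tested. There were 44 members above Luc and 31 below, so 58.7% were above Luc compared to 37.0% of all genes tested. The share above Luc was 57.1% for the cytosolic ribosomal proteins and 43.2% for the complex I genes. No member was called in either direction, beside 1.54% higher and 1.57% lower among all genes tested, and 72 of 75 lay within 0.32 of 0. The highest ratios were 0.34 for MRPL54, 0.28 for MRPL22, whose bacterial homologue lines the exit tunnel, and 0.27 for MRPS27, a small subunit protein with pentatricopeptide repeats. The lowest were -0.42 for MRPL48, -0.36 for MRPL38 and -0.29 for MRPS23, all 3 mitochondria-specific.

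MRPL48 was at 37.0 (Luc), 39.1 (WT), 39.5 (3NQ) and 27.4 FPKM (library labelled ΔTM). MRPL38, part of the central protuberance of the large subunit, was at 39.7, 39.5, 37.8 and 30.6 FPKM. In both genes the library labelled ΔTM lay below the other 3, which were close to each other. By class, 32 of 46 members with bacterial homologues were above Luc in the library labelled ΔTM, with a median of 0.041, compared to 11 of 28 mitochondria-specific members, with a median of -0.037. In WT the order of the classes was the other way, with medians of -0.015 and 0.021. All 4 medians were far under the threshold and the classes were not tested against each other.

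MRPL54 was above Luc in the other 3 libraries, at 13.4 FPKM in Luc, 16.99 FPKM in WT, 16.9 FPKM in 3NQ and 17.2 FPKM in the library labelled ΔTM. The other 3 libraries lay together and Luc apart, but the ratios of 0.31 to 0.34 rest on the same Luc value and none passed the threshold.

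WT, 3NQ and the library labelled ΔTM were also compared in pairs, which leaves Luc out. In WT against 3NQ the median was -0.037, and 3 members were called higher, MRPL55, MRPS28 and MRPL30, and 0 lower, beside 2.89% higher and 1.58% lower among all genes tested. In WT against the library labelled ΔTM the median was -0.068, and MRPL55 was called higher and 0 members lower, beside 4.25% and 2.91%. The lowest ratio there was -0.58 for MRPL23, a protein at the exit tunnel, at 24.6 FPKM in WT and 37.2 in the library labelled ΔTM. In 3NQ against the library labelled ΔTM the median was -0.026, and MRPS28 was called lower and 0 members higher, beside 1.88% lower and 1.46% higher. The median of all genes tested was 0.025, 0.047 and 0.021 in these 3 comparisons, and -0.0016, -0.00064 and -0.00068 after rescaling by the median of ratios.

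The order of the libraries gave a description without a control. The highest FPKM was in the library labelled ΔTM for 29 of 75 members, or 38.7%, compared to 16.8% of all genes tested. 3NQ held it for 19 members, WT for 15 and Luc for 12. After rescaling by the median of ratios over genes, the library labelled ΔTM was the highest for 36 members, or 48.0%, compared to 23.3% of all genes. Luc was then the highest for 5 members, or 6.67% compared to 24.5% of all genes. The differences behind this order were mostly small, as 72 of the 75 members in the library labelled ΔTM lay within 0.32 of Luc on the log2 scale. The order was not counted for related gene families. The share of the library in FPKM was also largest there for the cytosolic ribosomal proteins (11.9%) and for complex I (0.539%). The lead of the library labelled ΔTM is therefore not read as particular to the members. Without the library labelled ΔTM, Luc was highest for 26 members, or 34.7% compared to 38.9% of all genes, WT for 23, or 30.7% compared to 37.2%, and 3NQ for 26, or 34.7% compared to 23.9%. The lowest FPKM was in WT for 26 members, or 34.7% compared to 26.7% of all genes tested, in Luc for 18, in 3NQ for 16 and in the library labelled ΔTM for 15.

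**Figure D3:**
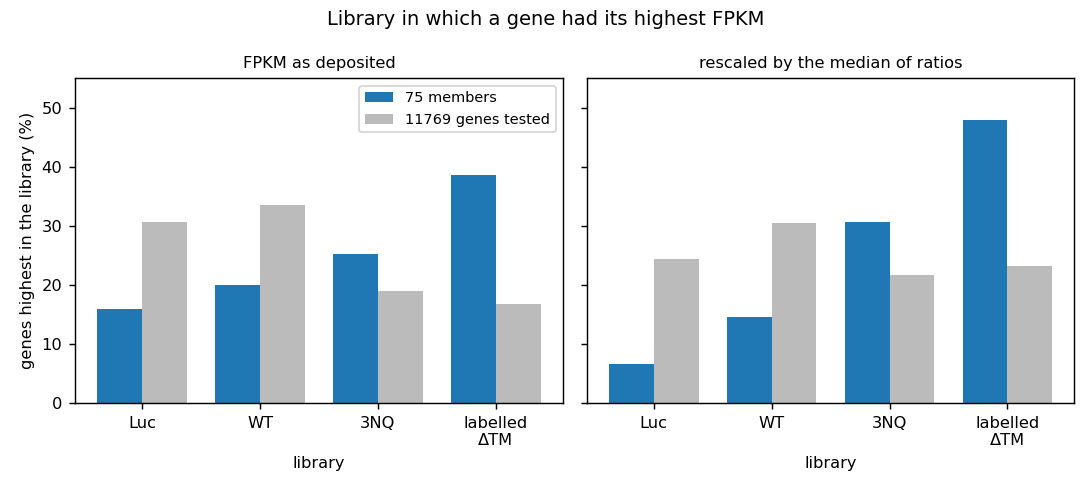
Share of genes (%) with their highest FPKM in each of the 4 libraries, for the 75 members and for all 11769 genes tested, with FPKM as deposited on the left and after rescaling by the median of ratios on the right. The bar of the members is tallest for the library labelled ΔTM, at 38.7% and 48.0%, compared to 16.8% and 23.3% of all genes tested. Related gene families were not counted in this way.

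Members with known roles were then followed one by one. The stalk of the large subunit, where translation factors dock, includes MRPL10, MRPL11 and MRPL12. MRPL10 was at 27.7 (Luc), 28.5 (WT), 29.6 (3NQ) and 28.9 FPKM (library labelled ΔTM). MRPL11 was at 52.5, 45.9, 52.1 and 47.7 FPKM. MRPL12, also reported to bind the mitochondrial RNA polymerase, was at 67.5, 57.02, 65.5 and 67.6 FPKM. WT was thus lowest for MRPL11 and MRPL12 but not for MRPL10, with log2 ratios to Luc of -0.19, -0.24 and 0.04.

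At the exit tunnel, MRPL23 was at 30.7 FPKM in Luc, 24.6 FPKM in WT, 25.2 FPKM in 3NQ and 37.2 FPKM in the library labelled ΔTM. MRPL24 was at 24.2, 19.8, 21.8 and 21.5 FPKM. MRPL45, which tethers the ribosome to the inner membrane, was at 53.0, 50.7, 47.7 and 48.8 FPKM. The 3 genes did not share an order of libraries, and none passed the threshold against Luc. MRPS12, at the decoding site, was at 27.3, 29.7, 33.9 and 29.97 FPKM, highest in 3NQ. SARS2, which it overlaps, was at 9.94, 10.6, 11.9 and 10.3 FPKM and was also highest in 3NQ.

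The 3 MRPS18 paralogues are alternative descendants of bacterial S18. MRPS18A was at 44.9 (Luc), 46.0 (WT), 47.3 (3NQ) and 42.6 FPKM (library labelled ΔTM). MRPS18B was at 60.9, 51.1, 59.6 and 69.2 FPKM. MRPS18C was at 39.0, 41.0, 34.5 and 43.7 FPKM. MRPS18B and MRPS18C were highest and MRPS18A lowest in the library labelled ΔTM, all within 0.32 of Luc on the log2 scale.

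MRPL41 and MRPS30 have been linked with cell death. MRPL41 was at 19.7 FPKM in Luc, 20.3 FPKM in WT, 20.7 FPKM in 3NQ and 16.4 FPKM in the library labelled ΔTM, and MRPS30 at 39.1, 39.0, 40.4 and 36.7 FPKM. Both were lowest in the library labelled ΔTM, with ratios to Luc of -0.25 and -0.09. MRPL44 and MRPS22 are mutated in inherited mitochondrial disease. MRPL44 was at 28.6, 29.2, 30.2 and 25.9 FPKM and MRPS22 at 64.3, 62.1, 56.4 and 66.8 FPKM. MRPS36 matched the symbol rule but encodes a part of the oxoglutarate dehydrogenase complex, not of the ribosome, and was at 19.8, 20.2, 20.95 and 23.8 FPKM.

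Finally, genes that work with the mitochondrial ribosome were read from lists. Of all genes tested, 1.54% to 3.36% were called in a direction in a comparison with Luc. At those shares a short list would hold few calls or none. Of 7 subunits under other symbols 6 were tested, and 0 were called in any comparison with Luc. Among these, GADD45GIP1 was at 63.8 (Luc), 51.2 (WT), 56.1 (3NQ) and 57.1 FPKM (library labelled ΔTM), and ICT1, a peptidyl-tRNA hydrolase built into the large subunit, at 25.5, 22.1, 26.1 and 27.1 FPKM. Of 25 assembly factors, RPUSD4, an RNA pseudouridine synthase, was the 1 gene called, higher in WT with a log2 ratio of 0.74. It was at 14.6, 25.1, 21.7 and 18.9 FPKM. Of 19 translation factors, METAP1D, a mitochondrial methionine aminopeptidase, was the 1 gene called. It was at 20.7, 8.51, 34.1 and 15.7 FPKM, below Luc by -1.19 in WT and above it by 0.69 in 3NQ. Of 20 mitochondrial tRNA synthetases, CARS2, which charges cysteine tRNA, was the 1 gene called, at 24.2, 24.0, 65.1 and 23.2 FPKM and with a ratio of 1.39 in 3NQ. CARS2 was thus high in 3NQ alone, while METAP1D was lowest in WT and highest in 3NQ.

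Of 23 tested genes of mitochondrial DNA transcription and upkeep and 14 tested mitochondrial chaperones and proteases, 0 were called in the comparisons with Luc, where 1.54% to 3.36% of all genes tested were called in a direction. At those shares lists of this size would hold few calls or none. The 13 proteins encoded by the mitochondrial genome, the products of this ribosome, are not analysed here. The 37 complex I genes had medians of -0.12 (WT), -0.13 (3NQ) and -0.030 (library labelled ΔTM). Among them NDUFA3 was called lower in 3NQ at -0.92 and in the library labelled ΔTM at -0.68, and NDUFC2 in the latter at -0.63. The 77 cytosolic ribosomal proteins had medians of -0.095, 0.012 and 0.040. In the library labelled ΔTM, 2 of them were called higher, RPS19 at 1.18 and RPS21 at 1.04, and 3 lower, RPL17 at -0.82, RPL27A at -0.64 and RPS25 at -0.59. No member of the mitochondrial ribosome was called in that library, where 1.54% of all genes tested were called higher and 1.57% lower.

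The integrated stress response, which impaired mitochondrial translation is known to induce among many other stresses, was read from 14 tested genes. In WT 5 were called higher, beside 3.36% of all genes tested: PPP1R15A at 1.04, DDIT3 at 1.00, CHAC1 at 0.92, SESN2 at 0.88 and GDF15 at 0.64. Another 6 of the 14 lay below Luc in WT, with ratios from -0.26 for ATF4 to -0.01 for ASNS, and 0 were called lower. In 3NQ DDIT3 at 0.94, ATF5 at 0.73 and PPP1R15A at 0.63 were called higher and DDIT4 at -0.65 lower. Of all genes tested, 1.77% were called higher there and 2.57% lower. In the library labelled ΔTM DDIT3 was called higher at 0.92 and DDIT4 lower at -0.77, beside 1.54% and 1.57% of all genes tested. DDIT3, a transcription factor of this response, was at 10.04 FPKM in Luc, 21.1 FPKM in WT, 20.1 FPKM in 3NQ and 19.9 FPKM in the library labelled ΔTM, so Luc stood apart from the other 3 libraries. ATF4, which drives the response largely through its own translation, was at 367, 306, 261 and 302 FPKM and was not called. Medians of this list were 0.20, 0.25 and 0.024, while those of the mitochondrial ribosomal proteins were 0.0030, 0.0096 and 0.027.

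**Figure D4:**
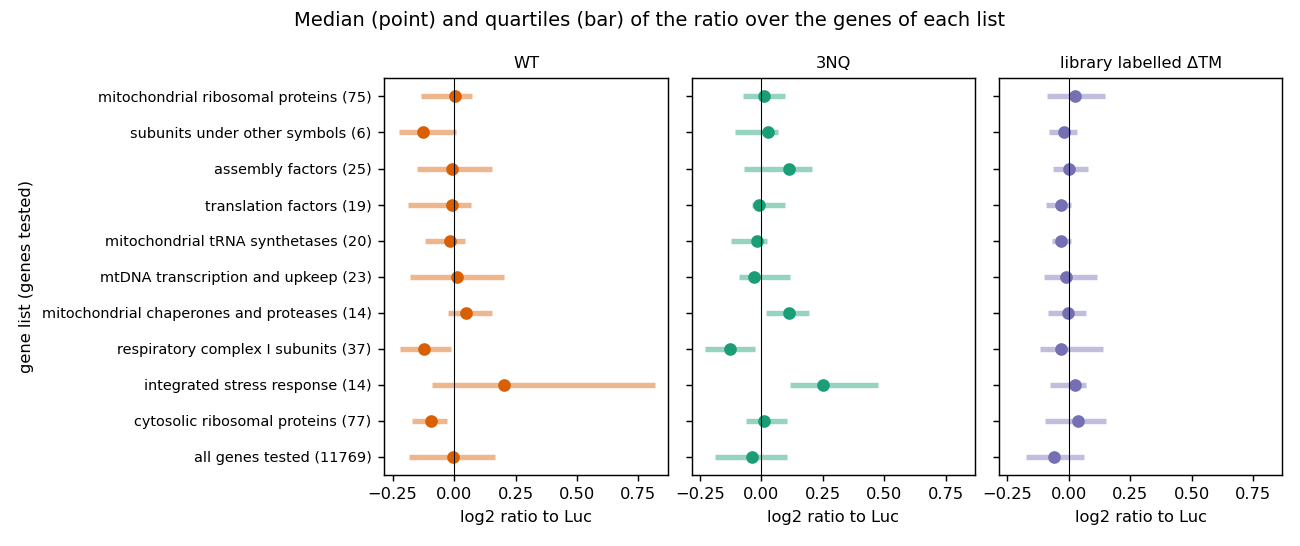
Median (point) and quartiles (bar) of the log2 ratio to Luc for the mitochondrial ribosomal proteins, the related gene lists and all genes tested, in WT, 3NQ and the library labelled ΔTM, with the number of genes in parentheses. The members sit near 0 in each panel, and the integrated stress response has the highest medians in WT and 3NQ, at 0.20 and 0.25.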

How the data were processed

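RNA of 4 MKN28 lines was sequenced as poly(A)-selected TruSeq libraries, 1 per line. The authors aligned reads with TopHat to GRCh37 with Ensembl gene models and deposited FPKM computed by Cufflinks 2.1.1 with multi-read and fragment bias correction, so transcripts sharing reads depend on that estimate. No counts or depths were used, and the precision of each value is unknown. Log2 ratios used a pseudocount of 1, a filter of 1 FPKM in at least 1 library and a threshold of 1.5-fold, in Python 3.11.15 with pandas 2.3.3. The calculation was checked on simulated data, which does not show how reliable a call is. Without replicates no test was run. Of rows that repeat a symbol the one with the highest mean was kept. The members and lists were chosen with earlier results of these data known. Named members were the 5 highest and the 5 lowest by mean, every member past the threshold, the 3 highest and 3 lowest ratios to Luc among members reaching 5 FPKM, and a fixed list by role. Those named only for a printed sequence, a neighbour or a ratio between libraries other than Luc were chosen after their values were seen. Promoters came from RefSeq (GRCh38.p14) and were not joined with the GRCh37 coordinates. Alternatives were other pseudocounts, filters, thresholds, rescalings, controls and member lists.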

Additional observations from a re-analysis of the deposited data

Results flagged for a closer look

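MRPS28 lay below Luc in 3NQ, with a log2 ratio of -0.77, and above Luc in WT at 0.17 and in the library labelled ΔTM at 0.27, so that 3NQ moved the other way from both. With 1 library per line this difference was not tested.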

How the results depend on the processing

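With a threshold of 0.32 on the log2 scale, the members called lower numbered 2 each with WT, 3NQ and the library labelled ΔTM. Those called higher numbered 1, 0 and 1 in the same order. Of all genes tested, 75.8%, 81.3% and 86.5% lay within that threshold, so the members were called less often than all genes. The cytosolic ribosomal proteins lay within it about as often as the members in WT (96.1%) and 3NQ (97.4%). In the library labelled ΔTM they did so less often (83.1%). At 2-fold, 0 members were lower in 3NQ. With a pseudocount of 0.1, 1 member was lower in WT and 2 in 3NQ, and with libraries rescaled to a common total 2 were lower in 3NQ. MRPL55 in WT stayed past 1.5-fold in 8 of 8 alternatives that give it a ratio (1.29 to 1.49), MRPS28 in 3NQ in 8 of 8 (-0.92 to -0.68) and MRPL30 in 3NQ in 2 of 8 (-0.64 to -0.41). The median ratio of the members ran from -0.014 to 0.029 in WT, with the other sign in 3 of 11 alternatives, from -0.015 to 0.048 in 3NQ, with the other sign in 1 of 11, and from 0.015 to 0.089 in the library labelled ΔTM. In WT against 3NQ it ran from -0.066 to 0.014, with the other sign in 1 of 10 (rescaled to a common total), and against the library labelled ΔTM it stayed below 0 for WT (-0.12 to -0.061) and 3NQ (-0.086 to -0.023). The order of the libraries without the library labelled ΔTM was added after seeing the data. No paired analysis was possible because each line had 1 library, and for the same reason no library could be left out of a group.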
